A study of Homo sapiens with 14 samples.

Results

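The response of SK-N-BE2 cells to a high dose of cobalt chloride (CoCl2) was set against the response to a low dose. The comparison used 4 of the 14 libraries of the series: 2 labelled CoCl2 50 µM and 2 labelled CoCl2 10 µM, chosen by title, with every gene of the count tables included. The 2 H2O libraries of the same labelled batch (batch 1) served as the shared baseline. SK-N-BE2 is an established human neuroblastoma line with amplified MYCN, and all 6 of these libraries are labelled wild type. The time in CoCl2 is not given in the sources used here, nor whether replicates 1 and 2 were separate cultures, so the tests measure only the spread between the libraries deposited, which may be technical. The libraries were made with oligo-dT from RNA of whole cultures, in which fewer cells of a kind and less RNA per cell cannot be told apart.

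Cobalt ions compete with iron in the prolyl hydroxylases that mark hypoxia-inducible factors (HIF) for degradation, and CoCl2 is widely used as a chemical mimic of low oxygen. Cobalt also acts as a heavy metal, to which cells can respond with metallothioneins, antioxidant genes and the integrated stress response. Sterol and fatty acid synthesis genes are controlled together by the SREBP transcription factors, which are released from the endoplasmic reticulum when sterols are low.

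Total counts were 31214128 to 39072373 in the 4 CoCl2 libraries and reached 39540111 in H2O. Of 19923 genes listed, 13636 passed the filter on low counts and were tested. Levels are given as CPM, counts scaled to library size, in replicate 1 and replicate 2, and differences as log2 fold changes with their standard error (SE) from edgeR's quasi-likelihood fit of the 6 libraries. Genes with a p under 0.05 after Benjamini-Hochberg adjustment were called. CPM values compare a gene between libraries and do not compare genes of different length. The 21 adrenergic neuroblastoma genes, of which 1 was under 1 CPM, summed to 8651 and 8588 CPM in H2O, 8997 and 8985 at 10 µM and 8094 and 8093 at 50 µM. The 27 mesenchymal genes, of which 8 were under 1 CPM, summed to 1512 and 1518 CPM in H2O, 1544 and 1545 at 10 µM and 1937 and 1959 at 50 µM. The adrenergic sum was thus lowest and the mesenchymal sum highest at 50 µM. MYCN, an adrenergic list member whose levels are given below, made up most of the adrenergic sum in each library. At 50 µM MYCN was lower by more CPM than the whole sum was, so the sum of the other adrenergic genes was not lowest there. A sum of CPM follows its most abundant members. Of the 20 mesenchymal genes tested, 7 were higher and 3 lower at 50 µM than at 10 µM, with a median log2 difference of 0.10. The part of the adrenergic and mesenchymal sums in the results was not tested. Endothelial markers summed to 3.52 to 4.49 CPM over the 6 libraries and Schwann cell markers to 3.27 to 5.57 CPM, with CDH19 at 0.

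Between the doses, 7198 of 13636 genes were called (52.8%), 3578 higher (26.2%) and 3620 lower (26.5%) at 50 µM than at 10 µM. The shares of 26.2% and 26.5% are the background for the counts of each gene list below. Most of these differences were small: 327 of the 7198 were at least 2-fold, 197 higher and 130 lower at the high dose. Against H2O, 61.4% of genes were called at 50 µM and 22.7% at 10 µM. The median log2 fold change of all genes was 0.0030 between the doses and -0.00066 at 10 µM against H2O, with about equal numbers in each direction. The 7198 genes fell into several patterns. For 1600 genes the change from H2O had the same direction at both doses and was larger at 50 µM, while for 31 it was smaller at 50 µM. Another 4477 were called against H2O at 50 µM and not at 10 µM, which by itself does not show that 10 µM had no effect. A further 560 were called between the doses and at neither dose against H2O, and 322 were called at 10 µM and not at 50 µM. The remaining 208 moved one way from H2O at 10 µM and the other way at 50 µM, with both calls made.

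**Figure D1:**
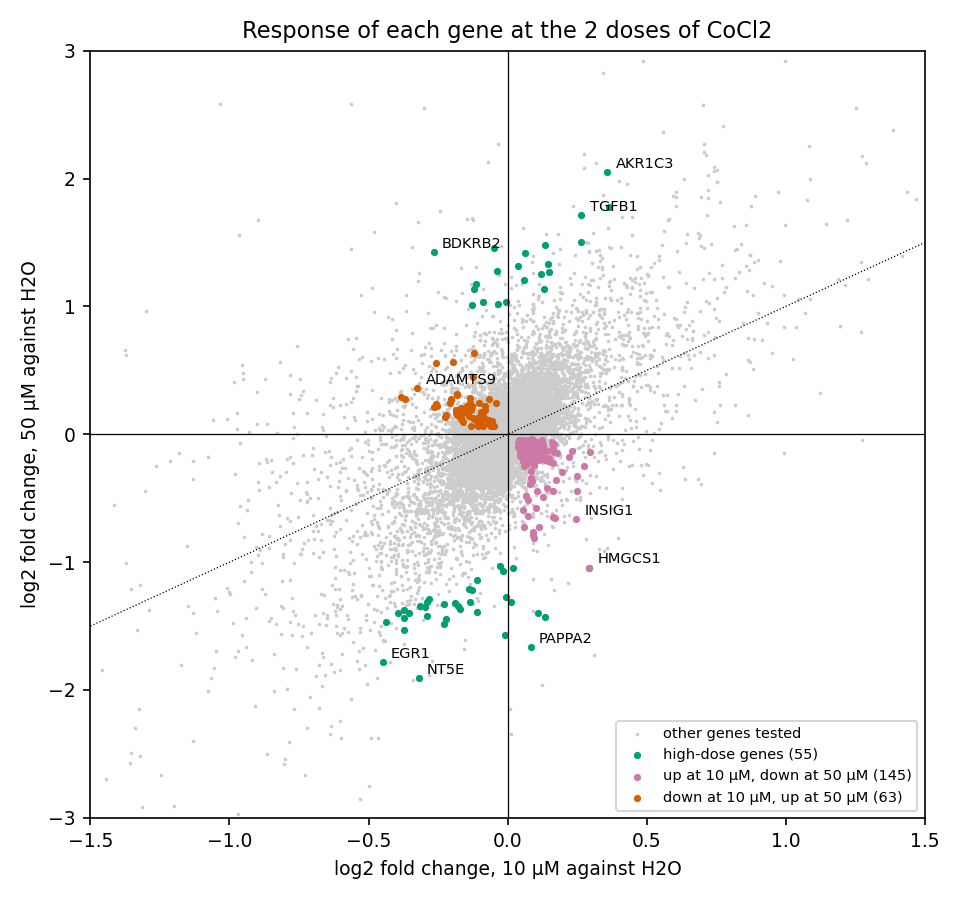
Log2 fold change of each gene against H2O at 10 µM (horizontal) and at 50 µM (vertical), from the same fit; 13595 of 13636 genes lie inside the axes, and no high-dose or turning gene lies outside them. High-dose genes (55) sit near the vertical axis and beyond 1 in either direction, and turning genes (145 and 63) lie in the lower right and upper left quadrants, most of them close to the origin; HMGCS1, in both classes, has the turning colour; the dotted line marks equal change at both doses, and both axes share the H2O libraries.

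High-dose genes and turning genes were defined as follows. A high-dose gene was called and at least 2-fold different, in the same direction, in 50 µM against 10 µM and in 50 µM against H2O. Its 95% confidence interval at 10 µM against H2O also had to lie within 1.5-fold either way. Of 13636 genes, 55 met this (0.403%), 21 higher (0.154%) and 34 lower (0.249%), and 20 of the 55 were also called at 10 µM by a small change (4 higher, 16 lower). A turning gene was called in opposite directions at the 2 doses against H2O and was also called between the doses: 208 genes did so (1.53%), 145 up at 10 µM and down at 50 µM (1.06%) and 63 down and then up (0.462%). Both classes were defined on these contrasts, so the values of their members are descriptions and carry no test. High-dose genes just inside the fold limit were INSYN2B (1.01) and TSPAN11 (-1.003); GPER1 and CERS4 lay just outside it, with a smaller absolute log2 difference of 0.98 and 0.99. Among turning genes, the largest of the 3 adjusted p-values was 0.0491 for YPEL2 and 0.04998 for UTP18, just inside the limit, and 0.0501 for SYNPO and 0.0511 for LIPA, just outside it. Only HMGCS1 belonged to both classes.

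The 21 high-dose genes that rose included receptors, secreted factors and redox enzymes. BDKRB2, the bradykinin B2 receptor gene (chromosome 14, 96204679 to 96244166, plus strand; exon positions shared with AL355102.2 on the same strand), was measured at 2.78 and 2.65 CPM in H2O, 2.14 and 2.37 at 10 µM and 7.84 and 6.80 at 50 µM, a log2 difference between the doses of 1.69 (SE 0.13). The 50 µM pair lay above the other 4 libraries, and the 10 µM pair lay just below H2O. AKR1C3, an aldo-keto reductase of steroid and prostaglandin metabolism (chromosome 10, 5035354 to 5107686, plus strand), was measured at 5.21 and 5.14 CPM in H2O, 6.61 and 6.66 at 10 µM and 20.8 and 22.1 at 50 µM, a difference of 1.69 (SE 0.075). Its 10 µM pair was slightly above H2O and the 50 µM pair stood far above both. TGFB1, which encodes the TGF-beta 1 ligand, was measured at 9.58 and 7.99 CPM in H2O, 10.5 and 10.6 at 10 µM and 27.9 and 29.6 at 50 µM, with a difference of 1.45 (SE 0.063). TGFB1 shares exon positions with HNRNPUL1 on the opposite strand; reads were assigned without regard to strand.

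GPR50, an orphan receptor related to the melatonin receptors, was measured at 10.1 and 9.23 CPM in H2O, 12.3 and 12.6 at 10 µM and 33.1 and 33.1 at 50 µM, a difference of 1.41 (SE 0.058), with the 2 libraries at 50 µM nearly equal. REST, which encodes a repressor of neuronal genes, was low throughout, at 1.74 and 1.71 CPM in H2O, 1.40 and 1.78 at 10 µM and 4.03 and 3.81 at 50 µM, with a difference of 1.29 (SE 0.16). REST shares exon positions with NOA1 on the opposite strand. SLC18A3, the vesicular acetylcholine transporter gene, differed by 1.36 (SE 0.18), SCGN, which encodes the calcium-binding protein secretagogin, by 1.51 (SE 0.21), and the histone gene H4C8 by 1.31 (SE 0.17). LIX1 differed by 1.35 (SE 0.10), at 4.61 and 4.53 CPM at 10 µM and 12.03 and 11.3 CPM at 50 µM. The other risers included GPX3, a secreted glutathione peroxidase (1.26), BLVRB, a biliverdin reductase (1.15), OSGIN1 (1.13), ADRA2A, the alpha-2A adrenergic receptor gene (1.13), and EDNRA, an endothelin receptor gene (1.05). In each of the 21 the CPM of the 2 dose groups did not overlap, which was also true of 74.5% of all genes tested.

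The 34 high-dose genes that fell included growth factor receptors, matrix genes and an immediate early gene. EGR1, an immediate early transcription factor gene (chromosome 5, 138465479 to 138469303, plus strand), was measured at 208 and 207 CPM in H2O, 151 and 153 at 10 µM and 59.8 and 60.6 at 50 µM, a difference between the doses of -1.34 (SE 0.029). At 10 µM it already differed from H2O by -0.45 on the log2 scale, inside the 1.5-fold limit, and the replicates of each group lay close together. NT5E, the gene of the ecto-enzyme CD73 that makes adenosine, was measured at 17.3 and 17.5 CPM in H2O, 13.98 and 13.9 at 10 µM and 4.06 and 5.15 at 50 µM, a difference of -1.59 (SE 0.092). PAPPA2, which encodes a protease of insulin-like growth factor binding proteins, was measured at 5.06 and 4.51 CPM in H2O, 5.15 and 4.99 at 10 µM and 1.41 and 1.60 at 50 µM, a difference of -1.75 (SE 0.16). For PAPPA2 the H2O and 10 µM libraries overlapped, and the 50 µM pair was low.

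TYRP1, a melanosomal protein gene, fell in the same shape, at 14.8 and 15.6 CPM at 10 µM and 5.15 and 5.49 CPM at 50 µM, with H2O and 10 µM within 13.8 to 15.6 CPM. RAG2, a recombinase gene that shares exon positions with RAG1 and C11orf74 on the opposite strand, differed by -1.56 (SE 0.12). NXPH1, which encodes a neurexin ligand, differed by -1.33 (SE 0.17), the nuclease gene ANKLE1 by -1.25 (SE 0.13), the organic anion transporter gene SLCO4C1 by -1.28 (SE 0.26) and the water channel gene AQP5 by -1.22 (SE 0.24). AQP5 was scarce and its libraries at 50 µM differed from each other, at 2.17 and 1.99 CPM in H2O, 1.99 and 1.60 at 10 µM and 0.576 and 0.924 at 50 µM. ANKLE1 shares exon positions with USHBP1 on the opposite strand. Among receptors, PDGFRB fell, at 30.3 and 29.5 CPM at 10 µM and 15.5 and 14.4 CPM at 50 µM (-1.01) and ERBB3, the neuregulin receptor gene, at 2.14 and 2.65 CPM at 10 µM and 1.18 and 0.951 CPM at 50 µM (-1.18). CDH4, a cadherin gene, differed by -1.13, SPOCK1, a proteoglycan gene, by -1.19, and ALDH1A3, an enzyme of retinoic acid synthesis, by -1.07.

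**Figure D2:**
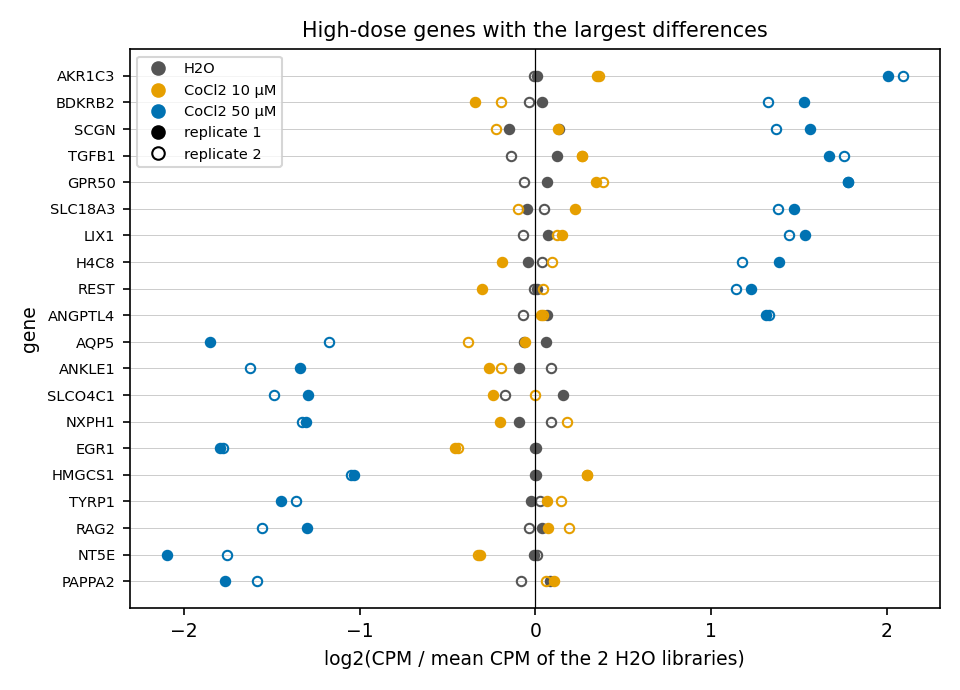
Level of 20 high-dose genes in each of the 6 libraries, as log2 of CPM over the mean of the 2 H2O libraries; filled points are replicate 1 and open points replicate 2. The 50 µM points (blue) stand apart from H2O and 10 µM for every gene drawn, from AKR1C3 at the top to PAPPA2 at the bottom, while the 10 µM points (orange) stay inside the 1.5-fold limit around H2O; the 50 µM libraries of AQP5 and NT5E lie apart from each other.

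A count rule picked out genes that were near absence on one side. With at most 3 counts in a group's 2 libraries together against at least 10 in each library, FCRL3 and EPSTI1 were on at 50 µM alone and DCHS2 was off. FCRL3, an Fc receptor-like gene, had 0 and 0 counts in H2O, 3 and 0 at 10 µM and 17 and 18 at 50 µM. Relative to library size, 50 µM was 13.0 times 10 µM (95% counting interval 4.09 to 65.9), and 50 µM was at least 13.7-fold above H2O on a floor of 3 counts over the H2O pair. EPSTI1, an interferon-responsive gene, had 2 and 1, 2 and 0, and 15 and 15 counts in the same order, a ratio of 16.7 (4.23 to 144). DCHS2, a cadherin gene, had 40 and 40 counts in H2O, 13 and 10 at 10 µM and 2 and 1 at 50 µM, a ratio of 10 µM to 50 µM of 6.90 (2.08 to 35.9). All 3 are rare transcripts, and these intervals cover counting error only. The rule picked the genes on these same counts, so intervals away from equality were fixed in advance and carry no test.

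Genes of sterol and fatty acid synthesis turned direction together. Of 33 members tested, 30 were lower and 0 were higher at 50 µM than at 10 µM, with a median log2 difference of -0.59 against 0.0030 for all genes. At 10 µM against H2O, 21 of the 33 were higher and 1 was lower (11.6% and 11.1% of all genes). At 50 µM against H2O, 0 were higher and 31 lower (30.4% and 31.1% of all genes). All 21 that were higher at 10 µM were turning genes. Over all genes tested, 145 of the 1586 called higher at 10 µM were turning. Over the 33, the median change from H2O was 0.09 at 10 µM and -0.51 at 50 µM. Every role took part. Between the doses 18 of 20 sterol enzymes, 7 of 7 fatty acid enzymes and 5 of 6 regulators were lower, and of these 11, 6 and 4 were turning.

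HMGCS1, which makes the HMG-CoA that enters the mevalonate pathway (chromosome 5, 43287470 to 43313512, minus strand), was measured at 468 and 465 CPM in H2O, 573 and 572 at 10 µM and 228 and 225 at 50 µM. Its replicates were nearly equal in each group, and the 3 groups did not overlap: on the log2 scale 10 µM differed from H2O by 0.29 and 50 µM by -1.04. INSIG1, which holds SREBP in the endoplasmic reticulum and is itself an SREBP target, was measured at 77.0 and 76.9 CPM in H2O, 92.5 and 90.4 at 10 µM and 48.2 and 49.1 at 50 µM, a difference of -0.91 (SE 0.034).

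Further along the pathway, IDI1 had levels of 95.5 and 93.9 CPM in H2O, 114 and 111 at 10 µM and 69.2 and 70.2 at 50 µM and FDFT1, the squalene synthase gene, of 257 and 255 CPM in H2O, 289 and 287 at 10 µM and 161 and 165 at 50 µM. Both showed the same order of groups, with 10 µM highest and 50 µM lowest and no overlap. The late enzymes SQLE (-0.60), LSS (-0.47), MSMO1 (-0.84), SC5D (-0.26) and DHCR7 (-0.88) had negative differences between the doses and were turning genes as well. On the fatty acid side, FASN, the fatty acid synthase gene, was measured at 979.8 and 966 CPM in H2O, 1031 and 1033 at 10 µM and 755 and 777 at 50 µM and SCD, a desaturase gene, at 1615 and 1613 CPM in H2O, 1686 and 1691 at 10 µM and 1164 and 1146 at 50 µM. ACLY (-0.34), ACACA (-0.59), FADS1 (-0.28) and FADS2 (-0.68) followed the same order; FADS1 and FADS2 share exon positions on opposite strands.

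Not every member turned. FDPS, MVK, MVD and ELOVL6 were lower at 50 µM than at 10 µM (log2 differences of -0.53, -0.62, -0.62 and -0.60) and were not called at 10 µM against H2O. SREBF1, one of the SREBP genes, was lower at both doses, at 76.7 and 78.3 CPM in H2O, 73.6 and 72.5 at 10 µM and 51.7 and 51.0 at 50 µM. PMVK (0.00, adjusted p 0.958), SCAP (-0.05, adjusted p 0.220) and TM7SF2 (-0.10, adjusted p 0.131) were not called between the doses by edgeR with Benjamini-Hochberg adjustment. SREBF2, the SREBP gene that mainly drives the sterol enzymes, was itself a turning gene, at 527 and 523 CPM in H2O, 555 and 559 at 10 µM and 450.2 and 454 at 50 µM. The count of 30 lower and 0 higher was the same in all 18 alternative fits, while the count of turning members ran from 10, with all 14 libraries in the fit, to 21 in the 17 alternatives that include H2O.

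**Figure D3:**
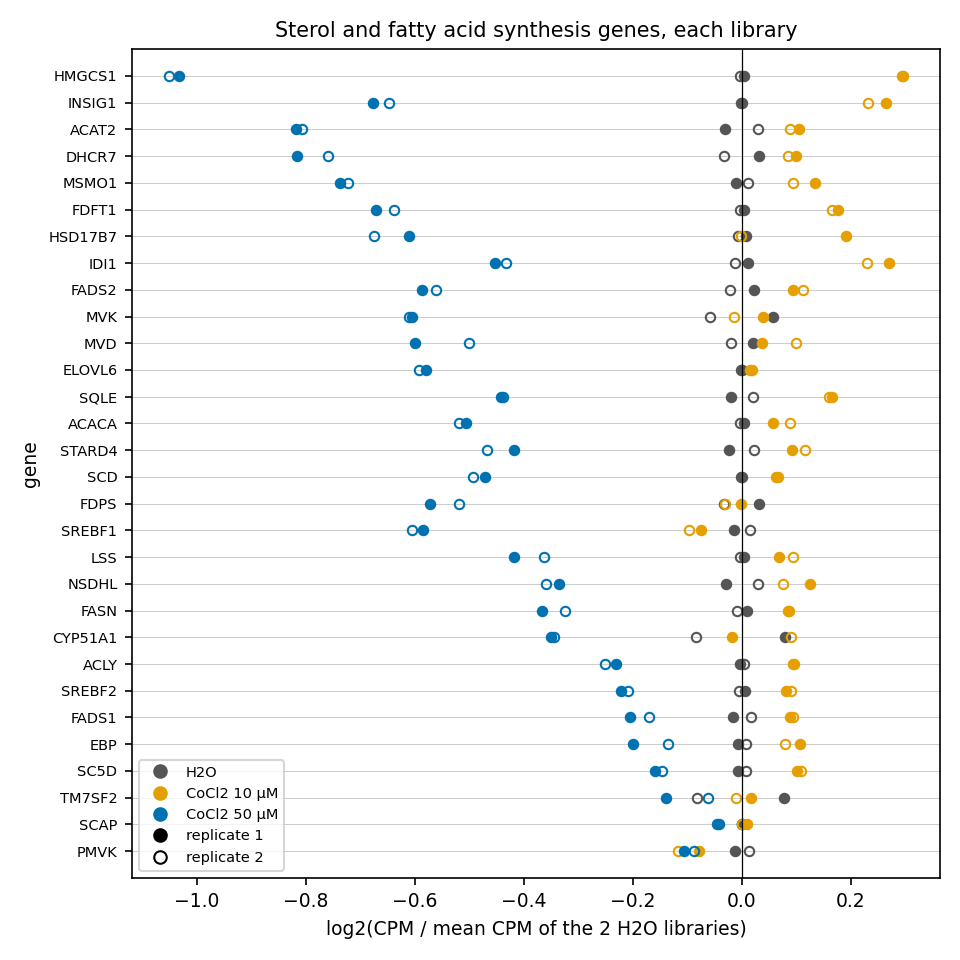
Of the 33 sterol and fatty acid synthesis genes tested, 30 are drawn, in each of the 6 libraries, as log2 of CPM over the mean of the 2 H2O libraries. The 10 µM points (orange) lie mostly to the right of H2O and the 50 µM points (blue) to the left, with HMGCS1 at 0.29 and -1.04 farthest in both directions; PMVK, SCAP and TM7SF2 at the bottom were not called between the doses.

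SREBF2 was the only one of the 26 list members with a promoter in the RefSeq table whose promoter held the sterol regulatory element core TCACNCCAC, searched on both strands. This motif was chosen after the turning sterol genes had been seen. The window ran from 250 bases before to 50 after the start, and 1.46% of the promoters of all 11131 genes matched in the table held the core. The 250 bases before the SREBF2 start (GRCh38.p14, chr22:41832855-41833104, plus strand) are shown because the gene stands at the head of the set, with the core in capitals.
SREBF2: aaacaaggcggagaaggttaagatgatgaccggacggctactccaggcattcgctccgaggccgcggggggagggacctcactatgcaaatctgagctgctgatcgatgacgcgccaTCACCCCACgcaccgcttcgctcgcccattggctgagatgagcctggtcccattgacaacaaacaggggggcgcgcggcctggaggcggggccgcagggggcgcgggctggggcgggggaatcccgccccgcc
The match lies 133 to 125 bases before the start. It is a match of letters only, and the absence of the core in the other 25 windows says only that these letters are not there.

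Other genes that rose at 10 µM and fell at 50 µM included MYCN itself. MYCN (chromosome 2, 15940550 to 15947007, plus strand) was measured at 5252 and 5231 CPM in H2O, 5577 and 5562 at 10 µM and 4499.5 and 4497 at 50 µM, 3 groups without overlap, and the difference between the doses was -0.31 (SE 0.012). CHGB, a chromogranin of secretory granules, showed the same order at 2882 and 2938 CPM in H2O, 3212 and 3172 at 10 µM and 2519 and 2543 at 50 µM. ROBO2, a receptor for the Slit guidance proteins, was measured at 76.4 and 75.5 CPM in H2O, 90.2 and 90.6 at 10 µM and 63.3 and 58.0 at 50 µM, a difference of -0.58 (SE 0.033), with the 2 libraries at 50 µM further apart than the other pairs. KCNH5, a voltage-gated potassium channel gene (-0.53, SE 0.035), EFNB3, the ephrin-B3 gene (-0.49, SE 0.075), the transcription factor gene KLF11 (-0.40, SE 0.055), SH2D5 (-0.52, SE 0.11) and FAM78B (-0.39, SE 0.043) were among the 10 genes of this kind that moved furthest from H2O at both doses. The changes at 10 µM were at most 0.30 on the log2 scale in all 145 of these genes, with a median of 0.09.

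Heat shock and nucleolar genes supplied several more. Of 17 heat shock genes tested, 11 were lower and 5 higher at 50 µM than at 10 µM, and 4 were turning: HSPA8, HSPD1, HSPA9 and DNAJA1. The 4 became 1 without H2O replicate 1, without either 10 µM replicate and with all 14 libraries in the fit, and 2 in DESeq2. HSPA8, the constitutive cytosolic HSP70, was measured at 2929 and 2935 CPM in H2O, 3196 and 3194 at 10 µM and 2837 and 2855 at 50 µM. HSPH1 (-0.35, SE 0.021, adjusted p 2.98e-35) and HSP90AA1 (-0.22, SE 0.014, adjusted p 1.20e-33) were lower between the doses in edgeR's test, and SERPINH1, the collagen chaperone of the endoplasmic reticulum, was higher (0.48, SE 0.026, adjusted p 1.21e-39). Of 29 ribosome biogenesis genes, 19 were lower and 2 higher, with a median of -0.13. NCL, the nucleolin gene, was measured at 2231 and 2214 CPM at 10 µM and 1843 and 1876 CPM at 50 µM, and UTP20 differed by -0.36 (SE 0.028, adjusted p 2.15e-24). NPM1, NOLC1 and NOP14 were turning genes with changes within 0.10 of H2O at both doses.

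A total of 63 genes were down at 10 µM and up at 50 µM. ADAMTS9, a matrix metalloprotease gene (chromosome 3, 64515654 to 64688000, minus strand), was measured at 33.3 and 32.8 CPM in H2O, 26.9 and 25.9 at 10 µM and 42.4 and 42.5 at 50 µM, the only turning gene with an absolute log2 change from H2O of at least 0.32 at both doses. The 10 µM pair lay below H2O and the 50 µM pair above it, each by more than its replicates differed. COL27A1, a fibrillar collagen gene, was measured at 4.80 and 4.01 CPM in H2O, 3.33 and 3.42 at 10 µM and 5.38 and 5.40 at 50 µM, and its H2O libraries differed by more than those of either dose. EFEMP2, the fibulin-4 gene that overlaps MUS81 on the opposite strand, was measured at 10.1 and 9.46 CPM in H2O, 7.55 and 7.59 at 10 µM and 11.8 and 11.9 at 50 µM. LAMB2, a laminin subunit gene, differed between the doses by 0.48 (SE 0.053), PLXNB3, a semaphorin receptor gene, by 0.50 (SE 0.059), and CRABP1, a retinoic acid binding protein gene, by 0.81 (SE 0.078). PLXNB3 shares exon positions with SRPK3 on the same strand. PPP2R2B, a phosphatase subunit gene, was measured at 11.3 and 13.1 CPM in H2O, 10.8 and 10.4 at 10 µM and 18.0 and 18.1 at 50 µM, and C5, a complement gene, at 7.23 and 8.12 CPM in H2O, 6.44 and 6.43 at 10 µM and 9.73 and 8.26 at 50 µM. For both, the H2O replicates differed from each other by more than the 10 µM replicates did.

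HIF targets and glycolysis genes were mostly higher at 50 µM than at 10 µM, and some turned. Of 31 HIF targets outside glycolysis, 26 were higher and 1 lower at 50 µM than at 10 µM, a median of 0.36 against 0.0030 for all genes. Against H2O at 10 µM, 5 of them were higher and 10 lower, beside 11.6% and 11.1% of all genes. Of 23 glycolysis genes, 18 were higher and 3 lower between the doses (median 0.20), while at 10 µM 2 were higher and 12 lower than in H2O (median -0.07).

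NDRG1, a HIF target gene of stress and differentiation, was measured at 237 and 236 CPM in H2O, 205 and 205 at 10 µM and 287 and 285 at 50 µM, a difference of 0.48 (SE 0.021). Replicates lay close together, and the order was 10 µM, H2O, 50 µM without overlap. BNIP3, which encodes a mitophagy receptor, showed the same order at 274 and 281 CPM in H2O, 260.0 and 264 at 10 µM and 323 and 322 at 50 µM, as did the transcription factor gene BHLHE40 at 23.3 and 24.1 CPM in H2O, 20.4 and 20.7 at 10 µM and 28.7 and 27.5 at 50 µM. P4HA2, a collagen prolyl hydroxylase gene, and DDIT4, an inhibitor of mTORC1, were also turning, with differences of 0.36 (SE 0.046) and 0.12 (SE 0.019). P4HA2 was measured at 37.0 and 33.2 CPM in H2O, 30.0 and 32.5 at 10 µM and 39.0 and 41.1 at 50 µM, with 1 H2O library close to the 10 µM pair.

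Among glycolysis genes, SLC2A1, the GLUT1 glucose transporter gene (chromosome 1, 42925375 to 42958868, minus strand), was measured at 178 and 177 CPM in H2O, 169 and 163 at 10 µM and 199.7 and 201 at 50 µM. PGK1, phosphoglycerate kinase, was measured at 1573 and 1559 CPM in H2O, 1482 and 1450.0 at 10 µM and 1678 and 1698 at 50 µM, and shares exon positions with ATP7A on the same strand. ENO2 (0.34, SE 0.017), HK1 (0.29, SE 0.017) and PFKP (0.21, SE 0.019) were the other turning members. Others rose at 50 µM with no call at 10 µM: GAPDH at 4807 and 4785 CPM at 10 µM and 5831 and 5930.3 CPM at 50 µM (0.29, SE 0.012, adjusted p 7.42e-55) and ALDOA at 104 and 104 CPM at 10 µM and 134 and 140.5 CPM at 50 µM (0.40, SE 0.027, adjusted p 8.01e-31), by edgeR's test. LDHA was not called between the doses (0.02, SE 0.051, adjusted p 0.750) and at 10 µM differed from H2O by -0.19. The number of turning members ran from 2 to 6 in glycolysis and from 1 to 5 in the other HIF targets over the alternative fits, and the count of higher members from 16 to 18 and from 22 to 27.

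**Figure D4:**
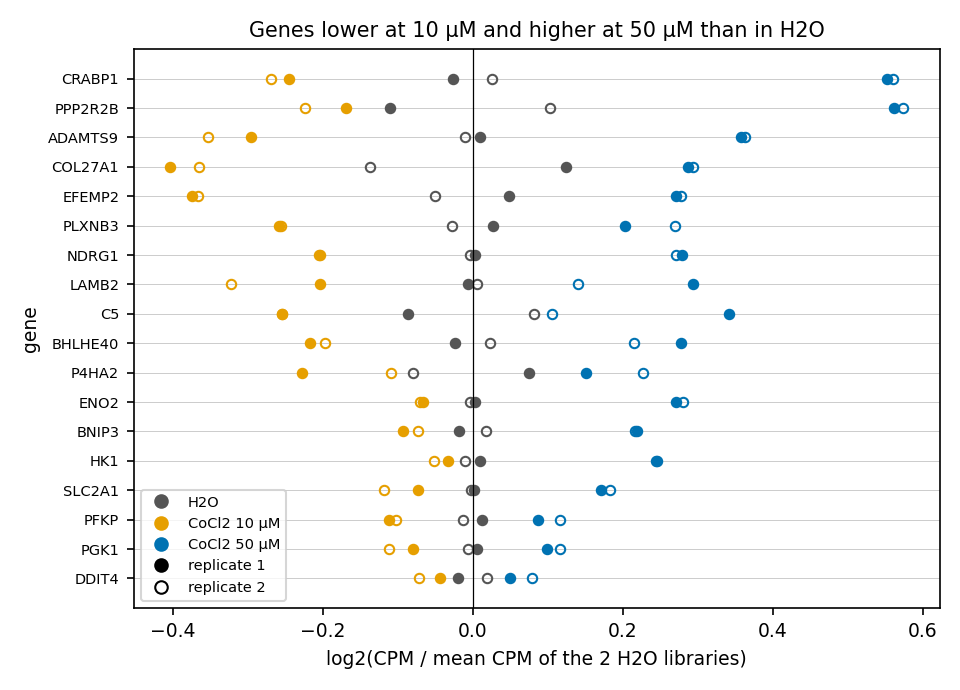
The 18 genes drawn are the 10 with the largest changes among those lower at 10 µM and higher at 50 µM than in H2O, and the turning glycolysis and HIF target genes; the axis is log2 of CPM over the mean of the 2 H2O libraries. The 10 µM points (orange) lie left of the 50 µM points (blue) for each gene, while the grey H2O points of C5, COL27A1, P4HA2 and PPP2R2B are spread widely.

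Other HIF targets responded at the high dose. NDUFA4L2, a mitochondrial HIF target and one of the 21 high-dose risers (chromosome 12, 57234903 to 57240715, minus strand), was measured at 107 and 103 CPM in H2O, 106 and 103 at 10 µM and 212 and 218 at 50 µM. H2O and 10 µM overlapped (95% interval of the log2 difference -0.059 to 0.049) and the 50 µM pair stood far above them (log2 difference 1.04 (SE 0.025)). NDUFA4L2 shares exon positions with SHMT2 on the opposite strand. ANGPTL4, a secreted inhibitor of lipoprotein lipase (chromosome 19, 8363289 to 8374370, plus strand), was measured at 5.62 and 5.12 CPM in H2O, 5.50 and 5.53 at 10 µM and 13.3 and 13.5 at 50 µM, with the same shape. CA9, a carbonic anhydrase, was measured at 54.8 and 57.6 CPM at 10 µM and 91.2 and 94.7 CPM at 50 µM (0.73, SE 0.033, adjusted p 5.58e-49), CA12 at 19.3 and 18.6 CPM at 10 µM and 34.3 and 35.7 CPM at 50 µM (0.89, SE 0.052, adjusted p 7.88e-37), and WSB1, a ubiquitin ligase subunit gene, at 65.1 and 63.7 CPM at 10 µM and 117 and 108 CPM at 50 µM (0.81, SE 0.031, adjusted p 1.32e-57), by edgeR's test. AK4 was called at both doses, at 66.2 and 67.3 CPM in H2O, 93.4 and 95.7 at 10 µM and 131 and 133 at 50 µM. The members not called between the doses were LOX, ANKRD37, HILPDA and ZNF395.

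The HIF pathway's own genes moved less. Of 11 components, 2 were higher and 5 lower, and the 2 were oxygen sensors: EGLN3 (0.50, SE 0.031, adjusted p 5.80e-34) and EGLN1 (0.35, SE 0.053, adjusted p 7.05e-09), the HIF prolyl hydroxylase genes. The 5 became 3 without 10 µM replicate 2 and with all 14 libraries in the fit, and 2 in DESeq2. Of 5 HIF subunit genes, 3 were lower. HIF1A mRNA was measured at 574 and 594 CPM at 10 µM and 556 and 544 CPM at 50 µM (-0.09, SE 0.017, adjusted p 2.90e-06), ARNT2 differed by -0.19 (SE 0.036, adjusted p 1.55e-06) and EPAS1 by -0.63 (SE 0.18, adjusted p 0.00233) in edgeR's test, a call that was lost in DESeq2 (adjusted p 0.0591). HIF activity is known to be set mainly by protein stability, which was not measured.

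The hypoxia response element core, ACGTG or GCGTG on either strand, was present in the 300-base promoters of 23 of 25 HIF targets, 21 of 22 glycolysis genes and 69.7% of all genes. Among high-dose risers 13 of 19 held it, beside 24 of 29 high-dose genes that fell. It was also in 89 of 113 up-then-down and 34 of 52 down-then-up promoters. Of the sterol and fatty acid synthesis genes, 23 of 26 held it, so sets that fell at 50 µM held the core as well. The 250 bases before the starts of NDUFA4L2 (GRCh38.p14, chr12:57240763-57241012, minus strand, the one of 2 listed promoters with more matches) and ANGPTL4 (GRCh38.p14, chr19:8363905-8364154, plus strand) are shown as the 2 HIF targets that met the high-dose rule, with each core in capitals.
NDUFA4L2: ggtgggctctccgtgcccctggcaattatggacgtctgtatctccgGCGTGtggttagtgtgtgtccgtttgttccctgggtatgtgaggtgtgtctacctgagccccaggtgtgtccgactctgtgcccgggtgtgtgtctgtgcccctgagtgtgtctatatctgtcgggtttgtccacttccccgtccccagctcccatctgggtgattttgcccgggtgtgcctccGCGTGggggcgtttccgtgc
ANGPTL4: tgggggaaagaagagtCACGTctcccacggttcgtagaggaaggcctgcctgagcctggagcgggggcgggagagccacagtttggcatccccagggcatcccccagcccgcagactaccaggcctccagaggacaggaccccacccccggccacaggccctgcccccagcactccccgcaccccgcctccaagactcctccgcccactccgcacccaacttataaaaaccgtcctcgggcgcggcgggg
NDUFA4L2 held 2 matches and ANGPTL4 held 1, as CACGT, the core on the opposite strand.

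Metallothioneins, small proteins that bind zinc and other metals, were among the largest rises between the doses. Of 11 metallothionein genes in the files, 4 passed the filter on low counts, and of these MT2A, MT1X and MT1G were higher at 50 µM than at 10 µM in edgeR's test. MT2A (chromosome 16, 56608584 to 56609497, plus strand) was measured at 3.83 and 3.30 CPM in H2O, 5.84 and 5.17 at 10 µM and 35.7 and 36.0 at 50 µM, a difference of 2.71 (SE 0.069, adjusted p 1.35e-82). MT1X (chromosome 16, 56682470 to 56684196, plus strand) was measured at 1.76 and 1.87 CPM in H2O, 3.47 and 2.86 at 10 µM and 16.0 and 16.8 at 50 µM, a difference of 2.38 (SE 0.10, adjusted p 5.03e-55). Both were already called at 10 µM against H2O, by 0.62 and 0.79, and did not meet the high-dose rule. The 10 µM pair lay a little above H2O and the 50 µM pair far above both. MT1G (2.48, SE 0.24, adjusted p 7.56e-19) and MT1F were scarcer. MT1F, at 0.0511 and 0.0252 CPM in H2O, 0.171 and 0.180 at 10 µM and 0.704 and 0.504 at 50 µM, passed the filter through its 50 µM libraries alone, so that its levels are given with no test. These genes are close paralogs, and reads shared between copies could be split or dropped by the counting.

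Zinc genes outside the metallothioneins were mixed. SLC30A1, a zinc exporter gene, was higher (0.27, SE 0.032, adjusted p 1.24e-13). SLC30A10, a manganese and zinc exporter gene, was lower (-0.98, SE 0.23, adjusted p 1.54e-04), at 1.30 and 1.08 CPM in H2O, 1.97 and 1.54 at 10 µM and 0.928 and 0.840 at 50 µM. The importer gene SLC39A8 was lower (-0.24, SE 0.04, adjusted p 1.67e-07), as was MTF1, the metal-sensing factor that drives metallothioneins (-0.14, SE 0.051, adjusted p 0.0118), by edgeR's test.

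The metal response element core, TGCACNC or TGCGCNC on either strand, was found in the promoters of 7 of 10 members of this list and in 46.2% of all genes. MT2A and MT1X were the only metallothioneins among the 7, and the rest were zinc transporter genes. Of the 7 with it 4 were higher and 1 lower (median 0.06), and of the 3 without it 0 were higher and 2 lower (median -0.14). The core was also in 16 of 25 promoters of the NRF2 list. The 250 bases before the starts of MT2A (GRCh38.p14, chr16:56608334-56608583, plus strand) and MT1X (GRCh38.p14, chr16:56682220-56682469, plus strand) are shown because several cores lie close together in each, with the cores in capitals.
MT2A: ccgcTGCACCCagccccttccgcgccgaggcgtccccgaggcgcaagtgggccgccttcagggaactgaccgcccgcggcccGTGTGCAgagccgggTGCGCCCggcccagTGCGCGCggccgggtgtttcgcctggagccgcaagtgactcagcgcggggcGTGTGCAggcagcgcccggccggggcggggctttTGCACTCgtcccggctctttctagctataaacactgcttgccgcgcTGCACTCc
MT1X: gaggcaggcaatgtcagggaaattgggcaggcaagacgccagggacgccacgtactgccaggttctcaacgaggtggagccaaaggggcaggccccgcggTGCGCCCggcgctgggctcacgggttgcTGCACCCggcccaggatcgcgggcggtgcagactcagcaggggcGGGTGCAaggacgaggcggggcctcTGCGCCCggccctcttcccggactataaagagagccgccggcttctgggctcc
MT2A held 7 matches and MT1X held 4. The matches of MT2A ran from 246 to 2 bases before the start and those of MT1X from 150 to 47.

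Among iron genes the transferrin receptor and ferritin genes rose. TFRC, the transferrin receptor gene, was measured at 414 and 419.5 CPM in H2O, 884 and 885 at 10 µM and 1680.2 and 1649 at 50 µM, a rise at each step and a difference between the doses of 0.91 (SE 0.014, adjusted p 3.19e-114). The ferritin genes FTL, at 448 and 441 CPM at 10 µM and 692 and 711 CPM at 50 µM (0.66, SE 0.017, adjusted p 9.08e-83), and FTH1, at 90.1 and 89.7 CPM at 10 µM and 136 and 142 CPM at 50 µM (0.63, SE 0.028, adjusted p 1.44e-50), were higher at the high dose. FTH1 was not called at 10 µM against H2O (adjusted p 0.464, edgeR) and shares exon positions with BEST1 on the opposite strand. STEAP3, a ferrireductase gene of transferrin uptake, was lower (-0.55, SE 0.048, adjusted p 2.58e-21). In all, 6 of 15 iron genes were higher and 4 lower, beside 26.2% and 26.5% of all genes tested.

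Of 30 NRF2 target and regulator genes, 17 were higher and 3 lower between the doses (median 0.18). NQO1, a quinone reductase gene, was measured at 33.1 and 35.6 CPM in H2O, 43.1 and 41.3 at 10 µM and 70.7 and 70.9 at 50 µM (0.75, SE 0.037, adjusted p 1.83e-44). AKR1C1, a relative of AKR1C3 with which it may share reads, was measured at 1.43 and 1.51 CPM in H2O, 1.34 and 1.03 at 10 µM and 4.77 and 4.56 at 50 µM (1.98, SE 0.17, adjusted p 3.23e-22). HMOX1, the heme oxygenase gene, was measured at 4.39 and 3.98 CPM in H2O, 3.65 and 3.37 at 10 µM and 7.30 and 7.81 at 50 µM (1.11, SE 0.11, adjusted p 7.68e-17). For AKR1C1 and HMOX1 the 10 µM pair lay below the H2O pair, with no call at 10 µM (adjusted p 0.304 and 0.137, edgeR), and the 50 µM pair lay above both. SQSTM1, an autophagy receptor gene, was higher at 50 µM (0.54, SE 0.032, adjusted p 4.88e-36), while the glutathione synthesis genes GCLC (0.01, SE 0.034, adjusted p 0.743) and GCLM (0.06, SE 0.047, adjusted p 0.298) were not called in edgeR's test. The antioxidant response element TGACNNNGC, on either strand, was held by 8 of 25 promoters of this list and by 19.1% of all genes. Of the 8 with it 4 were higher and 1 lower (median 0.12), and of the 17 without it 11 were higher and 0 lower (median 0.20).

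Genes of the integrated stress response, which ATF4 drives, rose in part. Of 38 tested, 24 were higher and 5 lower between the doses (median 0.13). NUPR1, a stress-induced chromatin protein gene, was measured at 0.307 and 0.479 CPM in H2O, 0.797 and 0.643 at 10 µM and 3.55 and 4.17 at 50 µM (2.43, SE 0.20, adjusted p 2.86e-23). DDIT3, which encodes CHOP, was measured at 12.6 and 13.3 CPM in H2O, 13.4 and 13.5 at 10 µM and 22.9 and 23.2 at 50 µM (0.78, SE 0.062, adjusted p 1.68e-24); H2O and 10 µM were alike and 50 µM stood apart, and DDIT3 shares exon positions with MARS1 and MBD6 on the opposite strand. PPP1R15A, which reverses the translation block, differed by 0.67 (SE 0.06, adjusted p 2.00e-20) and GDF15 by 1.57 (SE 0.26, adjusted p 4.78e-08) in edgeR's test. ASNS, asparagine synthetase, rose at each step, at 168 and 170.4 CPM in H2O, 198 and 197 at 10 µM and 235 and 243 at 50 µM (0.28, SE 0.022, adjusted p 7.00e-25), whereas TRIB3 (0.02, SE 0.048, adjusted p 0.812) and CHAC1 (-0.01, SE 0.083, adjusted p 0.941) were not called. PSAT1, an enzyme of serine synthesis, was a turning gene, at 177 and 179 CPM in H2O, 188 and 191 at 10 µM and 169 and 174 at 50 µM.

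The ATF4 composite element TGATGNAA, on either strand, was held by the promoters of 12 of 32 members of this list and by 2.76% of all genes. Of the 12 with it 7 were higher and 2 lower (median 0.13), and of the 20 without it 14 were higher and 1 lower (median 0.14). The 250 bases before the ASNS start (GRCh38.p14, chr7:97872409-97872658, minus strand, the one of 2 listed promoters with more matches) are shown as a holder that rose at both steps, with the element in capitals.
ASNS: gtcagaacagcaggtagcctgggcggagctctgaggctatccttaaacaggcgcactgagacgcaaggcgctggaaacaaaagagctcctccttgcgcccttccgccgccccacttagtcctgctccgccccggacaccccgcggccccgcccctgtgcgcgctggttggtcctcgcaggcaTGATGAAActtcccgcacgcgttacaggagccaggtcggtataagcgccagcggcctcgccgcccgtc
The element lies 68 to 61 bases before the start.

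Endoplasmic reticulum genes were mostly higher at the high dose, 16 of 20 against 2 lower, by small amounts (median 0.13). HSPA5, the BiP chaperone gene, was measured at 488 and 497 CPM in H2O, 553 and 540.5 at 10 µM and 651 and 659 at 50 µM (0.26, SE 0.016, adjusted p 8.11e-34), HERPUD1 differed by 0.39 (SE 0.033, adjusted p 4.83e-22) and CALR, the calreticulin gene, by 0.30 (SE 0.016, adjusted p 5.20e-40) in edgeR's test. HSPA5 rose at each step, while CALR was not called at 10 µM (adjusted p 0.287, edgeR).

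Replication and mitosis genes parted. Of 17 replication genes, 13 were higher and 2 lower between the doses (median 0.15), and of 18 mitosis genes 3 were higher and 14 lower (median -0.24). RRM2, the ribonucleotide reductase subunit gene, was measured at 404 and 405 CPM in H2O, 439.6 and 445 at 10 µM and 575 and 586 at 50 µM (0.39, SE 0.017, adjusted p 8.65e-52), and CDT1, a replication licensing gene, at 54.6 and 57.8 CPM at 10 µM and 88.2 and 85.8 CPM at 50 µM (0.63, SE 0.034, adjusted p 1.04e-40). CENPE, a kinetochore motor gene, was measured at 169 and 175 CPM in H2O, 157 and 158 at 10 µM and 108 and 106 at 50 µM (-0.56, SE 0.026, adjusted p 4.80e-48), and MKI67, the Ki-67 gene, at 456 and 456 CPM in H2O, 424 and 424 at 10 µM and 342 and 338 at 50 µM (-0.32, SE 0.018, adjusted p 3.65e-38). For both mitosis genes the order was H2O, 10 µM, 50 µM, each pair below the last. Of 13 mitosis genes lower at 10 µM against H2O, 0 were turning. Over all genes tested, 63 of the 1512 called lower at 10 µM were turning, so the 0 does not set mitosis genes apart.

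Among regulators of the cell cycle, CCND1, the cyclin D1 gene, fell, at 454 and 463 CPM at 10 µM and 389 and 393 CPM at 50 µM (-0.23, SE 0.018, adjusted p 9.21e-26), and E2F1 rose (0.29, SE 0.031, adjusted p 2.47e-16). CDKN1C, the p57 inhibitor gene, fell at each step, at 12.6 and 11.7 CPM in H2O, 4.84 and 4.73 at 10 µM and 2.53 and 2.41 at 50 µM (-0.96, SE 0.14, adjusted p 9.28e-10). CDKN1A, the p21 inhibitor gene and a p53 target, rose at each step, at 16.7 and 16.6 CPM in H2O, 23.0 and 22.6 at 10 µM and 37.4 and 38.5 at 50 µM (0.73, SE 0.048, adjusted p 1.78e-31). Among all genes tested, 26.2% were higher and 26.5% lower between the doses. The p53 targets as a list did not move together: 5 of 18 were higher and 2 lower (median 0.04), and 3 were higher without 50 µM replicate 2.

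Secretory peptide genes held the largest rise and one of the largest falls among the lists. SST, the somatostatin gene (chromosome 3, 187668912 to 187670394, minus strand), was measured at 0.613 and 0.782 CPM in H2O, 0.968 and 1.62 at 10 µM and 11.5 and 11.2 at 50 µM, a difference between the doses of 3.11 (SE 0.13, adjusted p 1.59e-52). CRH, the corticotropin-releasing hormone gene, rose at each step, at 17.0 and 17.3 CPM in H2O, 28.7 and 28.7 at 10 µM and 73.6 and 72.7 at 50 µM (1.35, SE 0.04, adjusted p 6.83e-74). CARTPT, which encodes the CART peptide, fell at each step, at 5.75 and 4.94 CPM in H2O, 3.67 and 3.89 at 10 µM and 0.800 and 0.784 at 50 µM (-2.25, SE 0.20, adjusted p 3.25e-21). CHGA, a granin, was measured at 2222 and 2206 CPM at 10 µM and 1781 and 1820.2 CPM at 50 µM (-0.30, SE 0.013, adjusted p 2.86e-50), with H2O and 10 µM overlapping. In all, 10 of 19 were higher and 5 lower, a median of 0.09, beside 26.2% and 26.5% of all genes tested.

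The neuroblastoma identity genes did not shift as a block. Of 20 adrenergic genes, 9 were higher and 8 lower (median 0.04), and of 20 mesenchymal genes 7 were higher and 3 lower (median 0.10). The shares of all genes tested were 26.2% higher and 26.5% lower. Without 50 µM replicate 1, 4 of the mesenchymal genes were higher (median 0.04), and in DESeq2 4 were higher and 2 lower. TBX2 rose, at 34.7 and 32.5 CPM at 10 µM and 54.99 and 57.4 CPM at 50 µM (0.74, SE 0.041, adjusted p 1.96e-39) and TFAP2B fell, at 364 and 368 CPM at 10 µM and 298 and 296 CPM at 50 µM (-0.30, SE 0.019, adjusted p 7.51e-34), by edgeR's test. SOX11, a transcription factor gene, was turning with a difference of -0.19 (SE 0.027). TH, the rate-limiting enzyme of catecholamine synthesis, was not called between the doses (0.00, SE 0.024, adjusted p 0.975). VIM, the vimentin gene, was higher (0.39, SE 0.014, adjusted p 1.23e-61) and TWIST1 lower (-0.30, SE 0.032, adjusted p 1.04e-15).

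In the BMP and TGF-beta pathway, 6 of 8 targets were higher and 1 lower, beside 2 of 7 receptors higher and 3 lower. ID2 rose at each step, at 39.9 and 39.9 CPM in H2O, 48.0 and 46.3 at 10 µM and 83.4 and 82.2 at 50 µM (0.81, SE 0.035, adjusted p 2.97e-52), as did ID3 (0.44, SE 0.037, adjusted p 6.83e-23), and SMAD6, an inhibitory SMAD gene, was measured at 7.41 and 7.03 CPM in H2O, 7.26 and 8.31 at 10 µM and 15.3 and 15.3 at 50 µM (0.97, SE 0.078, adjusted p 7.79e-24). SMAD6 was not called at 10 µM. Of 7 ligands or antagonists 1 was higher, TGFB1, and 1 lower. Notch pathway genes were split, 3 higher and 4 lower of 11, beside 26.2% and 26.5% of all genes tested. In edgeR's test NOTCH1 (0.83, SE 0.14, adjusted p 5.88e-08) was higher and DLL3 (-0.52, SE 0.07, adjusted p 8.36e-11) lower. Of 13 immediate early genes, 6 were lower and 2 higher. The 2 became 0 in DESeq2, with all 14 libraries, and with a filter of 1 CPM in 2 libraries. In these fits 5, 5 and 6 were lower. Beside EGR1, FOS was measured at 139 and 139 CPM in H2O, 105 and 107 at 10 µM and 71.3 and 72.5 at 50 µM (-0.56, SE 0.03, adjusted p 4.21e-40, edgeR). IER2 differed by -0.46 (SE 0.026, adjusted p 2.00e-38, edgeR).

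Between the doses, log2 differences ran from -0.30 to 0.21 in chromatin and RNA dioxygenase genes. They ran from -0.10 to 0.35 in Polycomb repressive complex 2 genes. The developmental Polycomb targets tested ranged more widely, from -1.32 to 1.83. Of 16 chromatin and RNA dioxygenases, which like the HIF hydroxylases use iron and 2-oxoglutarate, 6 were higher and 3 lower. Among all genes tested, 26.2% were higher and 26.5% lower. TET2, a 5-methylcytosine dioxygenase gene, was measured at 76.8 and 80.9 CPM at 10 µM and 92.0 and 86.3 CPM at 50 µM (0.17, SE 0.031, adjusted p 6.55e-07) and TET1 differed by 0.15 (SE 0.03, adjusted p 4.85e-06). TET3 was not called (0.05, SE 0.026, adjusted p 0.109) by edgeR, but was called with upper quartile scaling (adjusted p 0.0393) and without 50 µM replicate 2 (adjusted p 0.0370). Of 11 Polycomb repressive complex 2 genes 6 were higher and 2 lower; 3 were higher without 10 µM replicate 2, 0 were lower without 10 µM replicate 1, and 3 were higher and 0 lower in DESeq2. EZH1 (0.35, SE 0.04, adjusted p 2.33e-14) and JARID2 (0.30, SE 0.031, adjusted p 9.12e-17) were higher in edgeR's test. EZH2 differed by 0.12 (SE 0.035, adjusted p 0.00303) and SUZ12 by -0.10 (SE 0.031, adjusted p 0.00298), and both calls were lost in DESeq2 (adjusted p 0.0634 and 0.0523). Of 14 developmental Polycomb targets, 4 rose and 4 fell, close to the shares of all genes. By edgeR's test WT1 (-0.66, SE 0.10, adjusted p 1.93e-09) and HOXD8 (-0.42, SE 0.064, adjusted p 4.66e-09) were lower and GATA4 higher (0.41, SE 0.033, adjusted p 1.09e-23). The 4 that fell became 2 without 10 µM replicate 2 and without 50 µM replicate 2, and in DESeq2 2 rose and 2 fell.

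**Figure D5:**
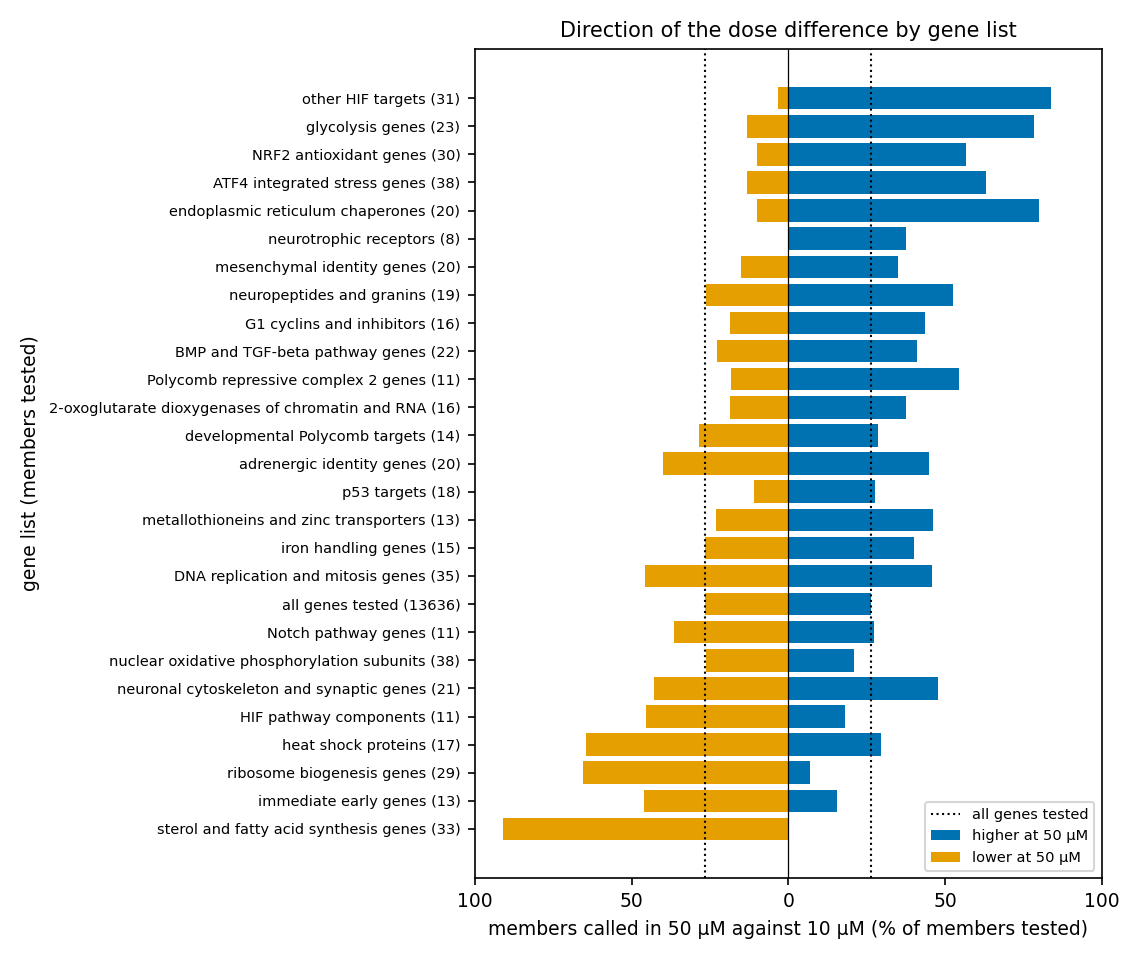
Share of each gene list called higher (blue, right) or lower (orange, left) at 50 µM than at 10 µM, with the number of members tested in brackets and lists ordered by their median difference; 26 lists with at least 8 members are drawn beside all genes. Dotted lines mark the shares of all genes, 26.2% higher and 26.5% lower. Sterol and fatty acid synthesis stands at the bottom with 0 of 33 higher, and HIF targets at the top with 26 of 31 higher.

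Some of the largest differences between the doses lay outside the lists. LAMA2, a laminin subunit gene, was measured at 0.285 and 0.309 CPM at 10 µM and 1.73 and 1.68 CPM at 50 µM (2.50, SE 0.30, adjusted p 4.91e-13), and SAMD11, which overlaps NOC2L on the opposite strand, at 0.968 and 0.823 CPM at 10 µM and 4.58 and 5.51 CPM at 50 µM (2.50, SE 0.18, adjusted p 1.28e-28). STXBP6, which encodes the syntaxin-binding protein amisyn, was measured at 0.0255 and 0.0504 CPM in H2O, 0.114 and 0.386 at 10 µM and 2.69 and 2.66 at 50 µM, and MICALL2 at 0.256 and 0.103 CPM at 10 µM and 0.896 and 1.20 CPM at 50 µM. STXBP6 and MICALL2 passed the filter on low counts through their 50 µM libraries alone, so that their levels are given with no test. Among the falls, TRIL, a co-receptor gene of Toll-like receptor signalling, was the most abundant, at 45.7 and 47.8 CPM in H2O, 24.5 and 23.2 at 10 µM and 6.11 and 5.82 at 50 µM (-2.00, SE 0.075, adjusted p 2.07e-59). KIAA0040 was measured at 25.7 and 25.0 CPM in H2O, 17.7 and 17.3 at 10 µM and 3.20 and 3.78 at 50 µM (-2.32, SE 0.092, adjusted p 4.22e-56). LARGE2, a glycosyltransferase gene, had 26 and 49 counts at 10 µM and 2 and 3 at 50 µM, 13.5 times more relative to library size at 10 µM (counting interval 5.53 to 42.8). LARGE2 was picked for the size of its fall, so this interval carries no test. ICAM4 (-1.88, SE 0.18, adjusted p 1.69e-18) and C6orf223 (-1.78, SE 0.24, adjusted p 9.08e-11) fell as well. TRIL and KIAA0040 fell at each step, each with a call at 10 µM against H2O in the same direction.

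Among markers of other cell types, 1 blood cell gene stood out. The summed CPM of 7 blood cell markers was 5.72 to 5.90 in H2O, 8.26 to 8.66 at 10 µM and 19.2 to 19.7 at 50 µM. CD68, which encodes a lysosomal glycoprotein of macrophages and of other cells, made up nearly all of it, at 5.31 and 5.09 CPM in H2O, 7.92 and 7.92 at 10 µM and 19.0 and 18.7 at 50 µM (1.251, SE 0.074, adjusted p 3.64e-36), while ITGAM and HBB were at 0 and CD14 was not called (0.02, SE 0.38, adjusted p 0.972). Of 5 endothelial markers tested, EMCN was higher (0.66, SE 0.20, adjusted p 0.00246) and CDH5 lower (-1.29, SE 0.40, adjusted p 0.00393); both calls were lost in DESeq2 (adjusted p 0.0645 and 0.0588), and EMCN was the only one of the 10 that reached 1 CPM. Of 2 Schwann cell markers tested, ERBB3 was called. The part of such cells in the results was not tested.

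Features that the class rules did not name are given here without a test. A turning gene had to be called in every contrast, mostly on small changes, which genes with many counts pass more easily. The level and length of the turning classes are therefore not independent of their rule. Turning genes were abundant: the median level in H2O was 155 CPM for the up-then-down genes and 60.1 CPM for the down-then-up genes, against 30.5 CPM for all genes, and 5.03 and 10.3 CPM for the high-dose genes that rose and fell. Exon length had medians of 7375 and 5397 bases in the turning classes, 3249 and 4644 in the high-dose classes and 5226.5 for all genes. The shares of promoters with the metal core were 47.4%, 34.5%, 47.8% and 48.1% in the high-dose up, high-dose down, up-then-down and down-then-up classes, beside 46.2% of all genes. The ATF4 element was held by 1 of 19 and 1 of 29 high-dose promoters and by 2 of 113 and 2 of 52 turning promoters. Exon positions were shared with another gene for 7 of 21 and 6 of 34 high-dose genes and for 25 of 145 and 17 of 63 turning genes, beside 30.2% of all genes. Among other genes named above this holds for CA9 (ARHGEF39), SREBF1 (RAI1), MVK (MMAB), CCND1 (LTO1), SQSTM1 (MGAT4B and MRNIP), HSP90AA1 (WDR20) and HSPD1 (HSPE1) with an opposite-strand gene, and for OSGIN1 (MLYCD), ALDOA, EGLN1 and ERBB3 with one on the same strand.

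How far class membership rested on the fit was counted over 17 alternatives. Of the 55 high-dose genes, 21 met the rule in every alternative (8 that rose and 13 that fell), among them ANGPTL4, NDUFA4L2, GPX3, LIX1, EGR1, NT5E, PAPPA2 and TYRP1. Of the 208 turning genes, 32 did so (23 up then down, 9 down then up), and the median gene turned in 12. The 32 held 10 sterol and fatty acid genes, HMGCS1, INSIG1, IDI1, FDFT1, SQLE, MSMO1, ACLY, FASN, FADS1 and FADS2, and also MYCN, CHGB, ROBO2, KCNH5, ADAMTS9, LAMB2, NDRG1, PFKP and PGK1. The total number of turning genes changed with single libraries. It was 135 without 10 µM replicate 1, 89 without 10 µM replicate 2, 92 without H2O replicate 1 and 119 without H2O replicate 2, and 236 and 203 without replicate 1 and replicate 2 at 50 µM.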

How the data were processed

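Raw counts per gene were used as the authors deposited them. Counting was done with featureCounts 1.5.3 on read pairs, per the file headers, summing exons by gene name in a GENCODE 33 protein-coding annotation with no strand option; per the submitters' processing notes, STAR 2.6.1d, Trimmomatic 0.36 and the GRCh38 build were used. Overlapping genes on opposite strands were therefore not separated. TRIzol RNA and strand-specific oligo-dT libraries were used, per the labels' protocols.

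The 6 batch 1 libraries, 2 per group, were fitted in edgeR 4.0.16 (R 4.3.3): filterByExpr by group, TMM, glmQLFit with robust = TRUE and legacy = FALSE, 1 coefficient per group, 3 residual degrees of freedom, and the dispersion held at a floor of 0.0001001 (estimate 7.66e-05). CPM use TMM-scaled totals. SE is the log2 fold change over the square root of F. The fit was also run on simulated counts. These gave all genes the same dispersion and changed few genes, unlike the data, so that run does not measure error rates here. Replicates differed by more than counting noise (chi-square per gene 1.32, 1.23 and 1.46 for H2O, 10 µM and 50 µM). Coordinates are GRCh38, from the count files. Promoters (RefSeq, GRCh38.p14) were matched by symbol for 11131 of 13636 genes, 3251 of them with more than 1 promoter; a gene held a motif if any of its promoters did.

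The members, the gene lists and the rules were chosen with earlier results of these data known. Named genes were the 8 largest rises and falls between the doses, the 10 largest of each class and direction (mean CPM of at least 1), the switched genes, the 4 list members with the smallest adjusted p, list members in a class, and a preset set; other list members named were chosen after their values were seen. A few genes that the rule names are not reported here; counts over lists include them. Alternatives were other scalings and filters, DESeq2 1.42.0, legacy edgeR, no dispersion floor, all 14 libraries, the 4 CoCl2 libraries alone, a replicate block, other thresholds and leaving out each library.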

Additional observations from a re-analysis of the deposited data

How the results depend on the processing

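Over 18 alternatives, 0 of the called genes among the 194 named reversed, 3463 of 3479 values stayed on the same side of the threshold, 14 lost a call (5 genes: CDH5, EMCN, EPAS1, EZH2 and SUZ12) and 2 gained one (TET3). Most named genes were picked for a large change or a small adjusted p in the main fit. That they kept their calls was therefore largely fixed in advance and says little about the genes not named. Among the lists, endoplasmic reticulum genes higher at 50 µM fell from 16 to 10 with all 14 libraries, and in DESeq2 and with all 14 libraries genes lower fell from 5 to 3 for the ATF4 list, 4 to 1 for iron and 5 to 2 for BMP and TGF-beta. The count of genes called between the doses was 4674 with all 14 libraries in the fit, 4927 in DESeq2 and 5979 to 7222 when 1 library was left out. Genes higher at 50 µM numbered 2322 in DESeq2 and 2196 with all 14 libraries, and the share of higher calls ran from 47.0% to 53.9%. High-dose genes numbered 33 in DESeq2, 39 to 56 with 1 library left out, 343 with a limit of 1.5-fold in place of 2-fold, and 186 when no call at 10 µM replaced the interval. Turning genes numbered 65 in DESeq2, 104 at an adjusted p of 0.01, 36 with all 14 libraries, 89 to 236 with 1 library left out, and 1 when an absolute log2 change of at least 0.32 was asked at both doses. Up-then-down genes fell to 94 when only library totals were used for scaling. Where 1 library was left out, the lone library of its group was assumed to vary like the other groups. Switched genes numbered 9 with at most 5 counts. The cause of these shifts was not tested, apart from stricter rules passing fewer genes. Replicate numbers did not pair the libraries (correlations of deviations 0.0087, -0.054 and -0.047); with the replicate block 7113 genes were called, 55 were high-dose and 180 turning. Levels near 1 CPM rest on few reads: 3 counts correspond to 0.0759 to 0.0961 CPM in these libraries.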

Other observations

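Some genes differed from H2O at 10 µM and were not called against H2O at 50 µM. With an absolute log2 change of at least 0.32 and a call at 10 µM against H2O, a call between the doses, no call at 50 µM against H2O, and at least 1 CPM, 9 genes were up at 10 µM and 20 were down. This rule was chosen after the values had been seen, and these genes carry no test of their own. A missing call does not place them all at the H2O level: SLC30A10, a metal transporter gene, differed from H2O by 0.55 at 10 µM and by -0.44 at 50 µM. LGALS1, the galectin-1 gene, was the most abundant, at 112 and 111 CPM in H2O, 83.9 and 83.2 at 10 µM and 107 and 112 at 50 µM. ISLR2, a neuronal membrane protein gene, was measured at 9.02 and 8.62 CPM in H2O, 6.18 and 7.08 at 10 µM and 9.28 and 9.04 at 50 µM, and PYGL, a glycogen phosphorylase gene, at 6.29 and 5.95 CPM in H2O, 4.44 and 4.14 at 10 µM and 5.60 and 6.07 at 50 µM. In each of these 3 the 10 µM pair lay below the other 4 libraries. Among the genes that were up, DACH1, a transcription factor gene, was measured at 5.85 and 6.001 CPM in H2O, 7.03 and 8.05 at 10 µM and 5.35 and 5.04 at 50 µM, LIPG, a lipase gene, at 2.73 and 3.08 CPM in H2O, 4.36 and 4.30 at 10 µM and 3.07 and 3.50 at 50 µM and POSTN, the periostin gene, at 0.869 and 1.08 CPM in H2O, 1.85 and 1.44 at 10 µM and 0.832 and 0.924 at 50 µM.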
